A study of Mus musculus with 15 samples.

Results

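The 10 genes of de novo fatty acid synthesis, Slc25a1, Acly, Acss2, Aacs, Acaca, Acacb, Mid1ip1, Thrsp, Fasn and Mlxipl, were followed through the eyecups of mice with a mutation in Tmem135. They were taken as a list of 10 genes of the pathway and found by Ensembl identifier among the 55421 genes counted in every library. All 10 passed the filters that left 18979 genes to be tested. RNA was sequenced from posterior eyecups without the neural retina, with 1 library from each of 15 mice aged 2.5 months. The groups were 4 WT mice, 6 Tmem135FUN025/+ mice with 1 mutant allele (FUN025/+ below) and 5 Tmem135FUN025/FUN025 mice with 2 mutant alleles (FUN025/FUN025 below). All 3 groups were on the C57BL/6J background, held both sexes and were collected at midday. The mutation is carried in the germline, so every cell of the mouse has it, and the eyecup mixes pigment epithelium, choroid and sclera with whatever muscle, nerve or retina adhered.

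De novo synthesis builds palmitate from the carbon of glucose and other fuels. Citrate leaves the mitochondrion through the citrate carrier SLC25A1 and is cleaved to cytosolic acetyl-CoA by ATP citrate lyase (ACLY), while ACSS2 makes acetyl-CoA from acetate and AACS activates acetoacetate, a ketone body, for lipid synthesis in the cytosol. Acetyl-CoA carboxylase then forms malonyl-CoA, the committed step. Its isoform ACC1 (Acaca) is cytosolic and supplies fatty acid synthase (FASN), whereas ACC2 (Acacb) sits at the outer mitochondrial membrane, where malonyl-CoA restrains the entry of fatty acids for oxidation. MID1IP1 and its paralog THRSP (Spot 14) act on the polymerization and activity of acetyl-CoA carboxylase. The carbohydrate-responsive factor ChREBP (Mlxipl) and the sterol-regulated factor SREBP-1c (from Srebf1) are known activators of these genes. The retinal pigment epithelium handles large amounts of lipid from the photoreceptor outer segments that it takes up.

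Known activators of this pathway bind DNA at sterol elements, E-boxes and NF-Y boxes, so the promoter windows of the 10 genes were read from RefSeq on GRCm38.p6. Each window runs from 250 bases before a gene's start to 50 after it. There were 11 windows, with all 10 genes matched and Mlxipl present with 2 starts. The 250 bases upstream of 3 genes that rose in FUN025/FUN025 eyecups are shown, because their RefSeq start is the GENCODE gene start. They are 5′ to 3′ on the minus strand, and capitals mark a CCAAT (NF-Y) box, a CACGTG E-box, a GGGCGG GC box or the reverse complement of one.
Slc25a1, chr16:17928220-17928469: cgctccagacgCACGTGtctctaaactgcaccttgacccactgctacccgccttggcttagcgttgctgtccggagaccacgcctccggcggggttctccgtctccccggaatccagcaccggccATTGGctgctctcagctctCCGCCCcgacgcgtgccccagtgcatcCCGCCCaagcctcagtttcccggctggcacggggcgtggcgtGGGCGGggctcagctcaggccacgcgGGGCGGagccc
Acly, chr11:100528001-100528250: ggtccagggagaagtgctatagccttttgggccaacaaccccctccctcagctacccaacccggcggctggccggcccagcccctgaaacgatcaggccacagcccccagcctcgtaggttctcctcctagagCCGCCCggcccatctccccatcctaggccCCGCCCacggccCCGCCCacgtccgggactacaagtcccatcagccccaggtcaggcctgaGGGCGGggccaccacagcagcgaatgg
Fasn, chr11:120824548-120824797: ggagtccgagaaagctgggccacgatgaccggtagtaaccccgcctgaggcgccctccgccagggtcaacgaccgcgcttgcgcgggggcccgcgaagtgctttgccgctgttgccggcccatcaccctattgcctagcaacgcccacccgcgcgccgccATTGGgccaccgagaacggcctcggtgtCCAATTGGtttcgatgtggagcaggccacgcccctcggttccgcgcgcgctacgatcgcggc
The Fasn stretch holds 3 CCAAT boxes, beginning 90, 62 and 59 bases before the start, the last of them overlapping its neighbour, and no GC box. The Acly stretch holds 4 GC boxes and no CCAAT box upstream of its start. The Slc25a1 stretch holds an E-box 239 bases before the start, a CCAAT box at 125 bases and 4 GC boxes.

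Over the 11 windows, 7 genes had CCAAT on either strand, a motif in 37.4% of all 32851 RefSeq windows of this length, and 5 genes had GGGCGG, present in 35.7%. CACGTG was found in the windows of Slc25a1 and Mlxipl and in 7.15% of all windows. The sterol element, searched as TCACNCCAC, is in 1.24% of all windows and was found in 1 of the 2 Mlxipl windows, with none in the windows of the genes that rose. Among those genes, the RefSeq starts of Acaca, Aacs and Mid1ip1 are not the GENCODE gene starts. The Acaca window, with upstream bases chr11:84195188-84195437, lies inside the gene. Sequence at the GENCODE starts of these genes was not searched. These are matches of letters in a short window and say nothing of what binds there.

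Levels are given as CPM (counts scaled to the TMM-adjusted library total) for comparing mice, and as TPM, which also divides by gene length, for comparing genes. In WT eyecups the order by TPM was Mid1ip1 (102), Acly (98.9), Slc25a1 (62.5), Fasn (42.2), Acacb (21.9), Aacs (16.1), Acaca (13.6), Thrsp (12.7), Acss2 (9.72) and Mlxipl (7.57). Mid1ip1 stood at the 91.7th percentile of the genes tested and Mlxipl at the 32.8th. The length used is the union of all exons of a gene, 17074 bases for Acaca, 10163 for Acss2 and 9632 for Acacb. The order by TPM therefore depends on these lengths. By CPM the WT means were 72.6 for Acaca and 66.3 for Acacb. The gene with the fewest counts, Thrsp, had between 72 and 187 per library, and Acly, with the most, had between 1613 and 3313. WT libraries totalled 18094977 to 20029919 counts, FUN025/+ libraries 10903183 to 13456349 and FUN025/FUN025 libraries 11053535 to 15038383. The shallowest WT library was thus deeper than the deepest mutant one, so depth and genotype cannot be told apart in comparisons with WT, while the 2 mutant groups overlapped in depth. The mean level of Tmem135 itself went from 64.0 ± 2.99 CPM (SD, n = 4) to 75.0 ± 7.30 (n = 6) and 88.3 ± 4.57 (n = 5), with both mutant groups called higher than WT and the step between them not called (adjusted p = 0.126). In these bulk samples, fewer cells of a type and less RNA per cell cannot be told apart.

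Members were called by edgeR's quasi-likelihood test with Benjamini-Hochberg adjustment over all 18979 genes at an adjusted p under 0.05. Between FUN025/FUN025 and WT eyecups 6 of the 10 rose (Slc25a1, Acly, Aacs, Acaca, Mid1ip1 and Fasn) and none fell, where 14.0% of all genes tested were called and 7.03% were called higher. Between FUN025/+ and WT eyecups only Acaca was called, and it rose, where 13.7% of all genes were called and 7.09% were called higher. Between FUN025/FUN025 and FUN025/+ eyecups Acaca and Fasn rose, where 0.522% of all genes were called and 0.327% were called higher. The median log2 fold change of the 10 genes was 0.23 between FUN025/FUN025 and WT, and 0.23 between FUN025/FUN025 and FUN025/+, against −0.0071 and −0.0040 over all genes tested. Between FUN025/+ and WT it was 0.0030, against −0.0023.

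**Figure D1:**
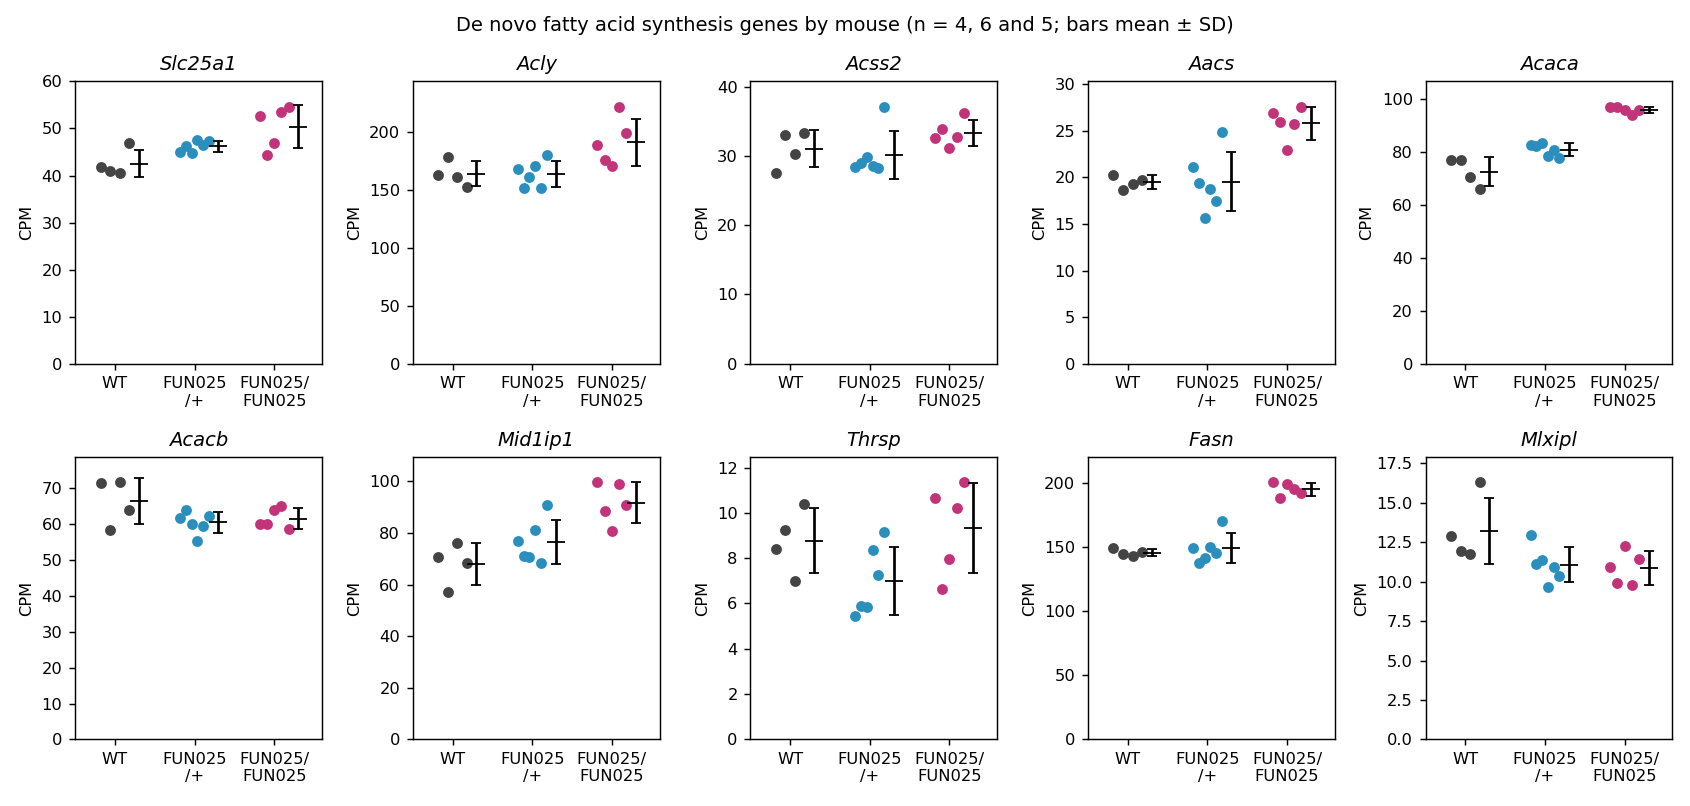
Level of each of the 10 genes in CPM (vertical axis, starting at 0), 1 point per mouse, with black bars for the mean ± SD in WT (n = 4), FUN025/+ (n = 6) and FUN025/FUN025 mice (n = 5). Acaca and Fasn in the 5 FUN025/FUN025 mice lie above every other mouse, while the groups overlap for Acss2, Acacb, Thrsp and Mlxipl.

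Among the genes that supply cytosolic acetyl-CoA, the citrate carrier gene Slc25a1 (chr16:17925223-17928219, minus strand) stood at 41.8, 40.9, 40.6 and 46.9 CPM in the 4 WT mice. The FUN025/+ mice ran from 44.8 to 47.5 with a median of 46.4, and the FUN025/FUN025 mice were at 52.7, 44.3, 47.0, 53.4 and 54.6 CPM. The highest WT mouse overlapped both mutant groups. The log2 fold change against WT was 0.24 (SE 0.063, adjusted p = 0.0151) in FUN025/FUN025 eyecups and 0.12 (SE 0.060, adjusted p = 0.206) in FUN025/+ eyecups. With skeletal muscle and rod marker levels as covariates the homozygous call was lost, at 0.15 (adjusted p = 0.508).

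Acly (chr11:100476353-100528000, minus strand), whose product cleaves the exported citrate, was at 163, 178, 161 and 152 CPM in WT mice and between 152 and 179.8 CPM in FUN025/+ mice (median 165). In FUN025/FUN025 mice it was at 189, 176, 171, 222 and 199 CPM. Of these 5 mice, 2 were within the WT range. The rise over WT was 0.22 on the log2 scale (SE 0.072, adjusted p = 0.0465), close to the threshold, and it passed in 7 of the 15 fits that left out 1 mouse (adjusted p 0.0273 to 0.130). It was lost without WT replicate 1, 3 or 4, FUN025/+ replicate 1 or 3, or FUN025/FUN025 replicate 1, 4 or 5. It was also lost in 6 of 14 other alternatives, which were library totals alone, the replicate block, only the genotypes compared, both sets of marker covariates and counts thinned to the smallest library (adjusted p = 0.0545). Between FUN025/+ and WT the difference was 0.00, with a 95% interval from −0.14 to 0.15.

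Acss2 (chr2:155517948-155585724), which makes acetyl-CoA from acetate, was not called in any comparison. Its level was 27.5, 33.0, 30.3 and 33.4 CPM in WT mice, 28.2 to 37.1 CPM in FUN025/+ mice (median 28.8) and 32.6, 33.9, 31.2, 32.8 and 36.2 CPM in FUN025/FUN025 mice. The 3 groups overlapped. The difference between FUN025/FUN025 and WT was 0.10, with a 95% interval from −0.07 to 0.27 that includes both 0 and the size of the Acly change. Exons of Ggt7, Gss and the antisense gene Acss2os cover 9.12% of its exon bases.

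Aacs (chr5:125475814-125517410), the acetoacetyl-CoA synthetase, stood at 20.3, 18.6, 19.3 and 19.7 CPM in WT mice. In FUN025/+ mice it ran from 15.6 to 24.9 CPM with a median of 19.1, and in FUN025/FUN025 mice it was at 26.9, 25.9, 23.0, 25.7 and 27.6 CPM. All FUN025/FUN025 mice were above all WT mice, and FUN025/+ replicate 6 was the 1 heterozygote that reached them. The log2 fold change was 0.41 (SE 0.10, adjusted p = 0.0123) between FUN025/FUN025 and WT, a call lost with the muscle and rod covariates (0.34, adjusted p = 0.351). Between FUN025/FUN025 and FUN025/+ it was 0.40 (SE 0.092, adjusted p = 0.0626), and without FUN025/+ replicate 6 it was 0.48 (adjusted p = 0.00414). This difference was also called in 4 of 14 other alternatives, which were DESeq2, limma-voom, no low-count filter and the replicate block (adjusted p = 0.00615). FUN025/+ and WT means, 19.6 ± 3.20 (SD, n = 6) and 19.5 ± 0.715 CPM (SD, n = 4), differed by 0.01 on the log2 scale, with a 95% interval from −0.20 to 0.21.

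At the committed step Acaca was called and Acacb was not, and the difference between the 2 carboxylase genes was not tested. Acaca (chr11:84129672-84401651), for cytosolic ACC1, was at 77.1, 76.9, 70.6 and 65.9 CPM in WT mice, between 77.7 and 83.4 CPM (median 81.7) in FUN025/+ mice and at 97.2, 97.0, 95.8, 94.0 and 96.1 CPM in FUN025/FUN025 mice. None of the 3 groups overlapped another, and the 5 homozygotes spanned only 94.0 to 97.2 CPM. Acaca rose by 0.16 (SE 0.046, adjusted p = 0.0320) in FUN025/+ and by 0.40 (SE 0.048, adjusted p = 2.32e-05) in FUN025/FUN025 eyecups relative to WT. It was also 0.25 higher (SE 0.044, adjusted p = 0.00804) in FUN025/FUN025 than in FUN025/+ eyecups. The rise per mutant allele, fitted as a line over the 15 mice, was 0.20 (adjusted p = 7.29e-05). The heterozygous call was lost in 5 of the 15 fits that left out 1 mouse (without WT replicate 3 or 4, or FUN025/+ replicate 1, 2 or 3), whereas both homozygous calls held in all 15. In the 14 other alternatives the heterozygous call passed in 8 (adjusted p 0.0156 to 0.437), and both homozygous calls passed in all 14.

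Of the 31-base stretches of Acaca transcripts, 33.5% also occur in other genes, most of them in the processed pseudogene Gm5182 on chromosome 12, which itself was counted at 6.25 ± 1.48 CPM (SD, n = 4) in WT mice and 12.0 ± 0.811 CPM (SD, n = 5) in homozygotes. Reads from these stretches can be assigned to either gene, and Gm5182 was called higher in homozygotes too, by 0.94 on the log2 scale (adjusted p = 2.10e-04). In FUN025/+ mice Gm5182 was also called higher than in WT, by 0.60 (adjusted p = 0.00741), without overlap of the groups. Acaca counts outnumbered those of Gm5182 in every group.

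Acacb (chr5:114146535-114250761), for mitochondrial ACC2, was called in none of the comparisons, and its point estimates against WT were negative. It was at 71.4, 58.4, 71.6 and 63.9 CPM in WT mice, between 55.5 and 64.0 (median 60.9) in FUN025/+ mice and at 60.2, 60.0, 64.0, 65.2 and 58.5 CPM in FUN025/FUN025 mice. The groups overlapped. The 95% interval of the difference between FUN025/FUN025 and WT was −0.24 to 0.02 on the log2 scale, which does not reach the Acaca change of 0.40. Per length, the ratio of Acacb to Acaca TPM was 1.34 to 1.80 in WT mice, 1.25 to 1.42 in FUN025/+ mice and 1.08 to 1.23 in FUN025/FUN025 mice. The ratio of every FUN025/FUN025 mouse was below that of every other mouse, while WT and FUN025/+ ratios overlapped. The size of the ratio depends on the exon lengths used, but its order among mice does not. Since the ratio was chosen with the values of Acaca known, it is given as a description.

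**Figure D2:**
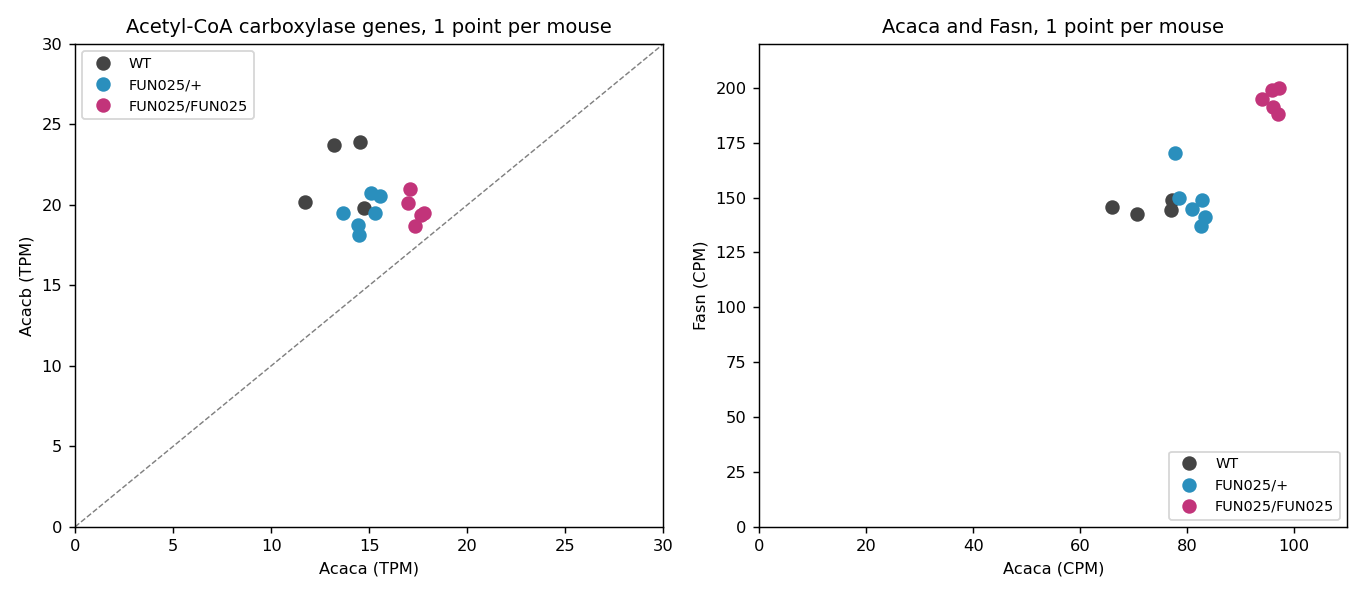
Left, Acacb against Acaca in TPM, 1 point per mouse, with a dashed line where both are equal; right, Fasn against Acaca in CPM. At left all points lie above the line, which depends on the exon lengths used. The FUN025/FUN025 mice have the lowest ratios, 1.08 to 1.23. They form a separate group at the upper right of the right panel, while FUN025/+ mice lie beside WT mice on the Fasn axis and past them on the Acaca axis.

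Of the 2 paralogs that act on the carboxylase, Mid1ip1 was called and Thrsp was not, and the difference between the 2 genes was not tested. Mid1ip1 (chrX:10715013-10719690) was at 70.8, 57.0, 76.3 and 68.4 CPM in WT mice, between 68.3 and 90.9 (median 73.9) in FUN025/+ mice and at 99.6, 88.5, 80.6, 99.1 and 90.8 CPM in FUN025/FUN025 mice. All 5 homozygotes were above all 4 WT mice. It rose by 0.43 (SE 0.092, adjusted p = 0.00514) in FUN025/FUN025 eyecups, a call lost with the muscle and rod covariates described further on, and its difference in FUN025/+ eyecups was 0.17 (SE 0.088, adjusted p = 0.224). The gene is X-linked, and sex was read from Xist against Y-linked counts because the labels give none. Among mice with low Xist the WT levels were 70.8 to 76.3 CPM and the FUN025/FUN025 levels 80.6 to 90.8 CPM, and among those with high Xist they were 57.0 to 68.4 and 99.1 to 99.6 CPM. The classes held 2 WT and 3 FUN025/FUN025 mice with low Xist and 2 of each with high Xist, and no test was run within them. The numbers of each sex read in this way differ from the study's list of mice for both mutant genotypes, so the classes are those of the counts and not of a record. The antisense gene Gm14493 covers 25.5% of its exon bases and was itself called higher, by 0.69 (adjusted p = 3.47e-04). Its counts were lower than those of Mid1ip1 in every group (30.5 ± 2.89 CPM in WT, SD, n = 4), and since the strand setting of the counting was not given, reads of the overlapped part cannot be told apart.

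Thrsp (chr7:97412938-97417730, minus strand), a paralog of Mid1ip1, was called in no comparison. Its difference was −0.33 between FUN025/+ and WT (adjusted p = 0.212) and 0.42 between FUN025/FUN025 and FUN025/+ (adjusted p = 0.606). Among the alternatives it was called only with the replicate block, as lower in FUN025/+ than in WT eyecups (−0.48, adjusted p = 0.0463). Its level was 8.40, 9.25, 6.99 and 10.4 CPM in WT mice, 5.44 to 9.15 (median 6.57) in FUN025/+ mice and 10.6, 6.62, 7.95, 10.2 and 11.3 CPM in FUN025/FUN025 mice. The widest intervals of the 10 genes belonged to Thrsp, at −0.27 to 0.46 between FUN025/FUN025 and WT, so a change the size of that of Mid1ip1 lay inside it. Adipocyte genes, in which Thrsp is known to be abundant, are described further on.

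Fasn (chr11:120805846-120824547, minus strand), the enzyme that assembles palmitate, set the homozygotes apart from both other groups. It was at 149, 144, 142 and 146 CPM in WT mice and between 137 and 170.3 CPM (median 147) in FUN025/+ mice. The FUN025/FUN025 mice were at 200.1, 188, 199, 195 and 191 CPM, all above every other mouse. The rise was 0.42 over WT (SE 0.053, adjusted p = 3.50e-05) and 0.39 over FUN025/+ (SE 0.047, adjusted p = 1.39e-04), and both calls held in all 15 fits that left out 1 mouse. In FUN025/+ eyecups the difference from WT was 0.03 (SE 0.051, adjusted p = 0.705), with a 95% interval from −0.07 to 0.14. Acaca and Fasn thus had similar rises in homozygotes and different point estimates in heterozygotes, a difference between 2 genes that was not tested.

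Mlxipl (chr5:135089890-135138382), the gene of ChREBP, was called in no comparison and had negative point estimates in both mutant genotypes. It was at 12.9, 11.9, 11.7 and 16.3 CPM in WT mice, between 9.65 and 12.9 (median 11.0) in FUN025/+ mice and at 10.9, 9.93, 12.3, 9.78 and 11.4 CPM in FUN025/FUN025 mice. WT replicate 4 was the highest mouse, and the groups overlapped. The difference between FUN025/FUN025 and WT was −0.28 (SE 0.11, adjusted p = 0.0989).

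**Figure D3:**
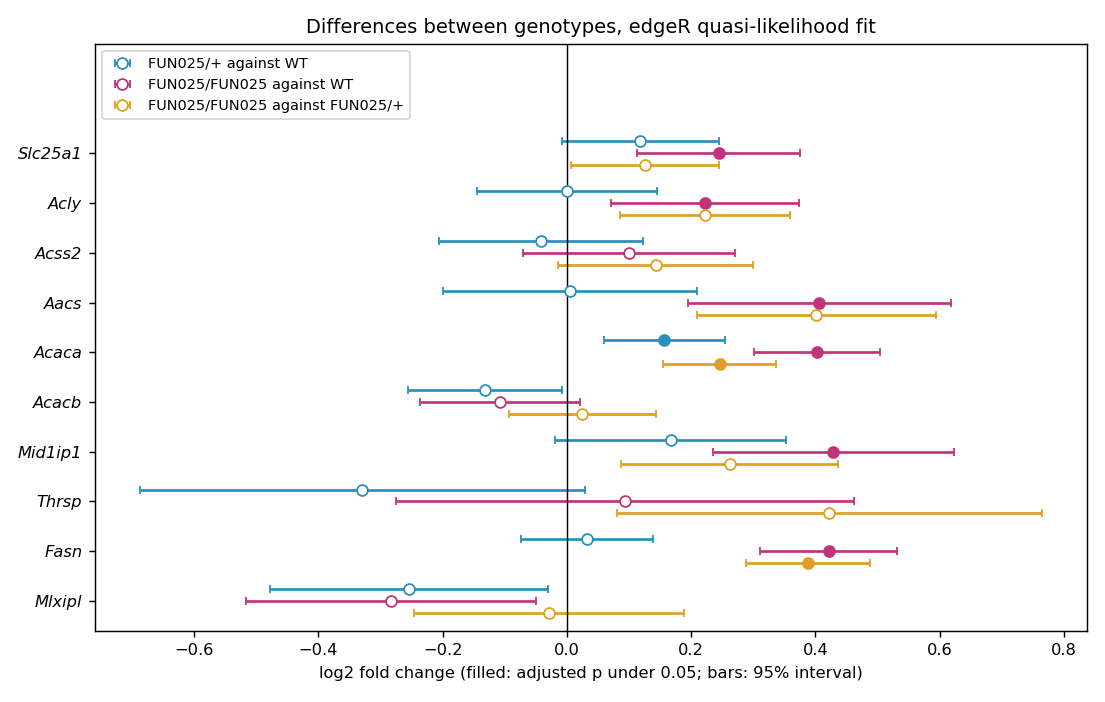
Log2 fold change (horizontal axis) of the 10 genes for FUN025/+ against WT (blue), FUN025/FUN025 against WT (magenta) and FUN025/FUN025 against FUN025/+ (yellow), with 95% intervals from the edgeR fit and filled points for an adjusted p under 0.05. Magenta points are filled for 6 genes, blue for Acaca alone and yellow for Acaca and Fasn.

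Counting mice rather than fits, the values of FUN025/FUN025 and WT mice did not overlap for 4 of the 10 genes (Aacs, Acaca, Mid1ip1 and Fasn, all higher), against 14.8% of all genes. Between FUN025/+ and WT mice this held for Acaca, against 10.9% of all genes, and between FUN025/FUN025 and FUN025/+ mice for Acaca and Fasn, against 1.12% of all genes. A line over the number of mutant alleles was called for 5 of the 10 genes (Slc25a1, Aacs, Acaca, Mid1ip1 and Fasn), all rising, where 8.9% of all genes tested were called and 4.28% were rising. Set against the midpoint of WT and FUN025/FUN025, all 10 FUN025/+ estimates were negative, although those of Slc25a1 and Mlxipl turned positive in some alternatives (up to 0.057 and 0.018). The median of the 10 estimates was −0.10, against 0.0012 over all genes tested. The Fasn estimate was called, at −0.18 (SE 0.042, adjusted p = 0.0317), where 1.95% of all genes were called and 0.701% were called lower. The Fasn call passed in 5 of the 15 fits that left out 1 mouse, with adjusted p between 0.00207 and 0.0863. It passed in 11 of 13 other alternatives and was lost with either set of marker covariates described further on (adjusted p up to 0.479). The estimates of the 10 genes share the same mice. FUN025/+ replicate 6 was the highest heterozygote for 6 of the 10 genes.

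The genes around the pathway were counted in lists. Over all genes, an unadjusted p under 0.05 was reached by 28.8% between FUN025/+ and WT (2834 of 18979 genes lower), 28.6% between FUN025/FUN025 and WT (2854 of them lower) and 6.23% between the mutant genotypes. DESeq2 called 15.7%, 16.0% and 0.901% of them, and edgeR called 6.61% lower between FUN025/+ and WT and 7.02% lower between FUN025/FUN025 and WT. Of 18 genes that supply mitochondrial citrate and acetyl-CoA, such as pyruvate dehydrogenase and citrate synthase, edgeR's quasi-likelihood test called 0 between FUN025/FUN025 and WT. At an unadjusted p under 0.05 there were 1 higher and 1 lower, and DESeq2 called 1 higher. Mdh2, the mitochondrial malate dehydrogenase, fell by 0.24 in FUN025/+ eyecups (adjusted p = 0.0283). Me1, the malic enzyme that supplies NADPH for FASN, was at 198.6, 201.8 and 213 CPM at the median of WT, FUN025/+ and FUN025/FUN025 mice, a difference of 0.08 between FUN025/FUN025 and WT (adjusted p = 0.522).

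Of 15 genes that activate or restrain the carboxylase and FASN, 1 rose and 1 fell in FUN025/FUN025 eyecups relative to WT. These 2 of 15 are close to the 14.0% of all genes called. Both belong to AMP-activated kinase, which phosphorylates and inhibits the carboxylases. The catalytic subunit gene Prkaa1 rose by 0.20 (adjusted p = 0.0187) and the subunit gene Prkab1 fell by 0.22 (adjusted p = 0.0128). In FUN025/+ eyecups both were called in the same directions, and Hlcs, which attaches biotin to carboxylases, rose by 0.26 (adjusted p = 0.0216).

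The later lists are read against the same background, in which 14.0% of all genes were called between FUN025/FUN025 and WT and 7.03% were called higher. Of 17 genes of transcriptional control, 4 rose and 2 fell in FUN025/FUN025 eyecups relative to WT. Srebf1, for SREBP-1, was at a median of 167 CPM in WT (148 to 184), 178 in FUN025/+ (155 to 192) and 284 in FUN025/FUN025 mice (254 to 302). As for Fasn, every homozygote was above every other mouse, with a rise of 0.74 over WT (adjusted p = 2.83e-06) and a difference of 0.08 between FUN025/+ and WT (adjusted p = 0.477). Insig1, which retains the SREBP complex in the endoplasmic reticulum, rose in both genotypes, by 0.58 (adjusted p = 6.88e-04) and 1.22 (adjusted p = 5.05e-07), with no overlap among the 3 groups. Srebf2 rose by 0.27 in homozygotes (adjusted p = 0.0148), and Usf2, an E-box factor, fell by 0.26 (adjusted p = 0.00793).

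Of 18 genes for the steps after FASN, 8 rose and 1 fell in FUN025/FUN025 eyecups relative to WT, and 5 rose relative to FUN025/+, where 0.522% of all genes were called and 0.327% were called higher. The 4 desaturase genes below had larger point estimates in homozygotes than any of the 10 synthesis genes. Scd1, which makes oleate, was at a median of 96.0 CPM in WT, 102 in FUN025/+ and 351 in FUN025/FUN025 mice, a rise of 1.84 over WT (adjusted p = 3.12e-08). Scd2 rose by 0.36 in FUN025/+ (adjusted p = 0.00159) and by 1.30 in FUN025/FUN025 eyecups (adjusted p = 2.40e-09). Fads1 and Fads2, of polyunsaturated fatty acid synthesis, rose by 0.73 (adjusted p = 6.52e-08) and 0.53 (adjusted p = 2.38e-05) in FUN025/FUN025 eyecups. The gene that fell was Lpin1, a phosphatidate phosphatase of triglyceride synthesis, by 0.34 (adjusted p = 0.0158).

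The separate mitochondrial fatty acid synthesis pathway, which makes the precursor of lipoate, had 9 of 10 genes tested, of which 1 was called, a share close to the 13.7% and 14.0% of all genes called against WT. It was Mcat, the malonyl transferase, which rose by 0.41 in FUN025/+ (adjusted p = 0.00167) and by 0.33 in FUN025/FUN025 eyecups (adjusted p = 0.0101). Of 8 genes of ketone body and acetoacetate metabolism, the pathway of Aacs, 2 rose and 1 fell in FUN025/FUN025 eyecups. Those that rose, Hmgcs1 by 0.67 (adjusted p = 9.93e-05) and Acat2 by 0.48 (adjusted p = 0.00745), are cytosolic enzymes at the start of sterol synthesis, and Bdh2 fell by 0.28 (adjusted p = 0.00228). Of 7 glucose-responsive ChREBP targets, 5 were tested and edgeR called 0 in each of the 3 comparisons between genotypes, with 2 lower at an unadjusted p under 0.05 between FUN025/FUN025 and WT and 1 lower by DESeq2. Txnip, the best known of them, differed from WT by −0.29 in FUN025/FUN025 eyecups (adjusted p = 0.125).

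**Figure D4:**
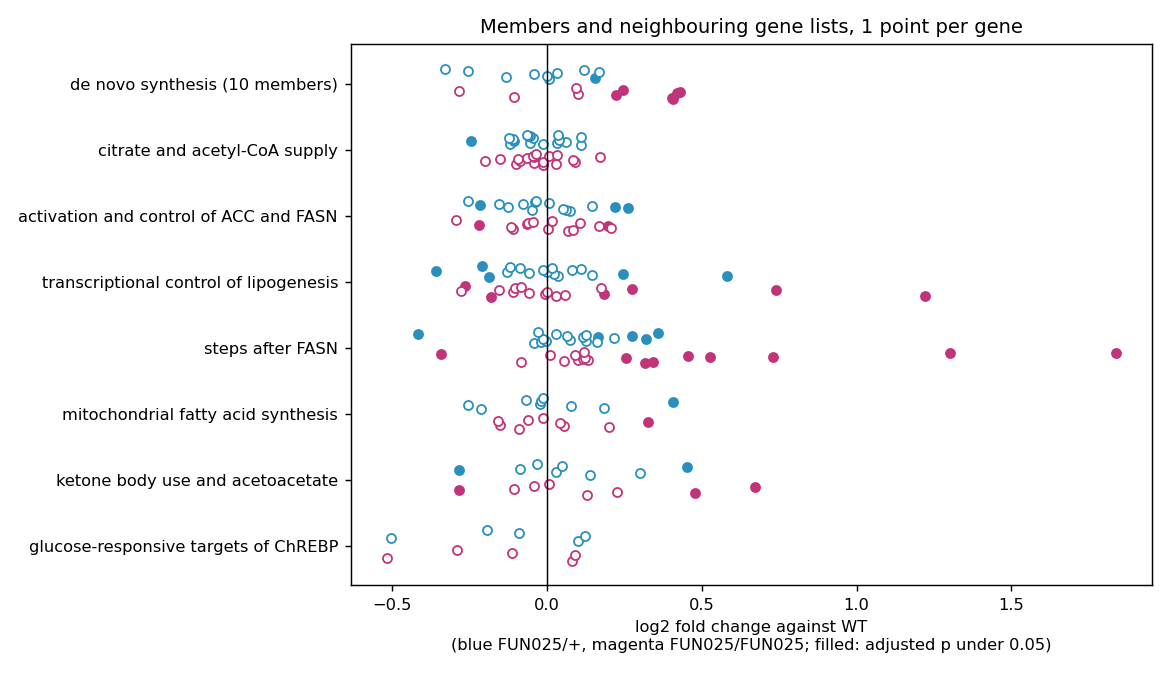
Log2 fold change against WT (horizontal axis) of each gene of the 10 members and of 7 neighbouring lists, 1 point per gene, in blue for FUN025/+ and magenta for FUN025/FUN025, filled where the adjusted p was under 0.05. Filled magenta points lie to the right for 6 members and for 8 genes of the steps after FASN, and there are none among the 18 citrate and acetyl-CoA supply genes.

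Lipogenic genes are abundant in fat and in sebaceous-type glands, so markers of these cells were read in the same libraries. The adipocyte list summed to 209 to 260.2 CPM in WT, 175 to 206 in FUN025/+ and 181 to 212 in FUN025/FUN025 mice. Of its 9 tested genes (11 listed) 3 were called lower in FUN025/+ relative to WT (Fabp4, Pck1 and Plin4), with 6 lower at an unadjusted p under 0.05 and 4 by DESeq2, where 6.61% of all genes were called lower, 2834 of 18979 were lower at an unadjusted p under 0.05 and DESeq2 called 15.7%. The median log2 fold change of the list was −0.97 there and −0.39 between FUN025/FUN025 and WT. Between FUN025/FUN025 and WT edgeR called 0, with 3 lower at an unadjusted p under 0.05 and 1 lower by DESeq2. The defining genes Adipoq, at 0.247 to 2.95 CPM, and Plin1, at 0.165 to 2.17 CPM, were low, with 3 to 53 and 2 to 36 counts per library. With the mean level of this list as a covariate Acaca, Aacs, Mid1ip1, Fasn and Slc25a1 were still called between FUN025/FUN025 and WT, and Acly was not (0.18, adjusted p = 0.132). Of 6 sebaceous-type markers 2 were tested, Awat1 had at most 3 counts in every library, and the 1 called, Soat1, a sterol esterifying enzyme found in many cells, rose by 0.51 (adjusted p = 4.15e-06).

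Skeletal muscle markers summed to 4269 to 8779 CPM in WT, 2287 to 6465 in FUN025/+ and 3717 to 4802 in FUN025/FUN025 mice, and rod markers to 330 to 2277, 178 to 717 and 174 to 473 CPM. Both lists had lower medians in mutant mice, with overlapping ranges, and 2 of 8 muscle markers and 1 of 8 rod markers were called lower between FUN025/FUN025 and WT. At an unadjusted p under 0.05 these were 4 muscle markers and all 8 rod markers, where 7.02% of all genes were called lower and 2854 of 18979 were lower at the unadjusted p. The median log2 fold change of the rod list was −1.89. Between FUN025/+ and WT 1 muscle marker and 0 rod markers were called lower, where 6.61% of all genes were. At an unadjusted p under 0.05 there were 5 and 7, where 2834 of 18979 genes were lower. The median log2 fold changes of the muscle and rod lists were −0.68 and −1.79 there. With both as covariates the standard errors against WT grew, and 2 members, Acaca (0.41, adjusted p = 0.0127) and Fasn (0.51, adjusted p = 0.00561), were called between FUN025/FUN025 and WT. Besides Slc25a1 and Aacs, Mid1ip1 (0.27, adjusted p = 0.407) and Acly (0.20, adjusted p = 0.465) were no longer called. Between FUN025/FUN025 and FUN025/+ eyecups, with the muscle and rod ranges overlapping, the same covariates left Acaca at 0.25 (adjusted p = 0.00676) and Fasn at 0.37 (adjusted p = 2.26e-04). The Schwann cell and myelin list summed to 433 to 491 CPM in WT mice and to 381 to 608 CPM in FUN025/FUN025 mice. In FUN025/+ mice it summed to 394 to 500.0 CPM except for replicate 6, at 709.9 CPM, the mouse that was highest for 6 of the 10 genes, and the part of this in the results was not tested. Of the 6 choroid endothelium markers 4 fell in FUN025/FUN025 eyecups relative to WT (Pecam1, Cdh5, Tie1 and Plvap), with sums of 869 to 1005 CPM in WT, 682 to 941 in FUN025/+ and 611 to 771 in FUN025/FUN025 mice. In FUN025/+ eyecups 2 were called lower than in WT, where 6.61% of all genes were called lower. Between FUN025/FUN025 and FUN025/+ edgeR called 0, with 4 lower at an unadjusted p under 0.05 (6.23% of all genes in either direction). The median log2 fold change of the 6 was −0.19 there. The part of these endothelium differences in the results was not tested. Of 7 macrophage markers 1 rose in FUN025/FUN025 eyecups relative to WT, Cd68, by 0.32 (adjusted p = 0.0167), and 3 were higher relative to FUN025/+ at an unadjusted p under 0.05, where edgeR called 0. The median log2 fold change of the 7 was 0.24 relative to WT and 0.21 relative to FUN025/+. Their counts summed to 450 to 561 CPM in WT, 448 to 641 in FUN025/+ and 512 to 583 in FUN025/FUN025 mice, and the part of this in the results was not tested. The 8 pigment epithelium markers, at sums of 16650 to 22410 CPM over the 15 mice, marked the tissue as labelled. None was called in any of the 3 comparisons by edgeR or DESeq2. At an unadjusted p under 0.05, 1 was higher between FUN025/FUN025 and WT, and 1 was higher and 4 were lower between FUN025/FUN025 and FUN025/+ (6.23% of all genes in either direction), where the median log2 fold change of the 8 was −0.18.

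Likeness across the 15 libraries was measured by Pearson's r of log2 CPM over 17587 genes of at least 1 CPM. These values include the genotype differences and are descriptions. The 5 genes most like Fasn were Scd1 (r = 0.952), Scd2 (0.943), Cst7 (0.942), Daam1 (0.932) and Srebf1 (0.928). The gene most like Slc25a1 was Fdft1 (0.948), the squalene synthase, and that most like Mid1ip1 was its antisense partner Gm14493 (0.922), with which it shares bases. For Acaca it was Cfi (0.935), for Aacs Macc1 (0.916), for Mlxipl Rps15a (0.886), for Acly Nap1l3 (0.877), for Acss2 Prmt1 (0.840), for Thrsp Ndufaf3 (0.838) and for Acacb Tmem63a (0.815). Among the 10 genes themselves the closest pair was Fasn and Aacs (r = 0.885) and the most opposed was Acaca and Mlxipl (r = −0.529).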

How the data were processed

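RNA from 15 eyecup samples was sequenced after NEBNext Ultra library preparation. The authors deposited whole-number read counts per Ensembl gene for every library, without normalization. The submitters' processing notes name FastQC 0.11.8, Trimmomatic 0.39, HISAT2 2.1.0, SAMtools, featureCounts 2.0.0 and GRCm38, and the strand setting is not given in the sources used here. Genotypes were taken from the sample titles. Symbols, positions and exon lengths came from GENCODE M21 and promoter windows from RefSeq (GRCm38.p6).

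The study dropped the lowest 15% of genes by variance, and here the variance of log2 CPM was used. The study's low-abundance threshold is not stated, so edgeR's filterByExpr stood in, leaving 18979 genes. Counts were scaled by TMM (factors 0.976 to 1.02) and fitted with edgeR 4.0.16 (robust quasi-likelihood, all 15 mice in one fit), with Benjamini-Hochberg adjustment over all genes tested and a threshold of 0.05. Intervals are at 95%. Levels of 3 counts corresponded to 0.15 to 0.275 CPM, which covers counting error only. The fits were tested on simulated counts. TPM used the union of exons. R 4.3.3, limma 3.58.1, DESeq2 1.42.0, Python 3.11.15, numpy 2.4.6 and pandas 2.3.3 were used.

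The 10 genes, the other gene lists and the marker lists were chosen with earlier results of these data known. The other genes named were up to 4 per pathway list with the smallest p between FUN025/FUN025 and WT among those called, 7 fixed genes (Srebf1, Srebf2, Scd1, Scd2, Insig1, Txnip and Me1), the genes most like each member and the markers that moved. Lpin1 was named after its values were seen. Alternatives were other scalings, tests, filters, covariates, the replicate number as a block, fits of only the genotypes compared and leaving out each mouse. Thinning every library to the smallest total was chosen after seeing the data. Labels say 1 mouse per library and give no batch.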

Additional observations from a re-analysis of the deposited data

Results flagged for a closer look

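In FUN025/+ eyecups the Acss2 level of replicate 6, 37.1 CPM, stood apart from the other 5 mice, of which the next was at 29.8 CPM. The gap exceeded Dixon's 95% critical value for 6 samples. This was 1 of 30 groups of values looked at, and chance flags about 1 in 20.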

How the results depend on the processing

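With DESeq2 size factors, upper-quartile scaling, DESeq2, limma-voom, at least 10 counts in every library or sex as a covariate, each count of members called kept within 1.5 times its value. Dropping the variance filter left 18979 genes tested and the same counts of calls over all genes, so it was no separate check. Of the 10 members, the 1 called between FUN025/+ and WT (Acaca) became 0 with library totals alone, with no low-count filter, with counts thinned to the smallest library, with muscle and rod covariates, with the adipocyte covariate and with only the genotypes compared. The 6 called between FUN025/FUN025 and WT became 2, and the 5 on the allele trend 2, with the muscle and rod covariates. The 1 below the midpoint (Fasn) became 0 with either covariate. Leaving out each mouse gave 0 to 1 between FUN025/+ and WT, 5 to 6 between FUN025/FUN025 and WT, 2 to 3 between the mutant genotypes, 3 to 6 on the trend (3 without FUN025/FUN025 replicate 5) and 0 to 2 against the midpoint. The cause of these changes was not tested. The marker lists used as covariates had lower medians in mutant than in WT mice, so those fits cannot separate composition from genotype.

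Replicate numbers come from the labels and name different mice. Deviations of same-numbered mice had a mean correlation of −0.25 for WT and FUN025/+, 0.055 for the mutant genotypes and −0.067 for WT and FUN025/FUN025, so the numbers were not taken as pairs. With the replicate block 2 members were called between FUN025/+ and WT, Acaca higher and Thrsp lower. In the other comparisons it called 5 between FUN025/FUN025 and WT, 3 between the mutant genotypes, 4 on the trend and 2 against the midpoint.

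Over all genes, the 2600 calls between FUN025/+ and WT became 262 with muscle and rod covariates, 690 with the adipocyte covariate and 1433 without WT replicate 4. The 2666 between FUN025/FUN025 and WT became 630, 1741 and 1519. The 99 between the mutant genotypes became 171 by DESeq2. The 1689 trend calls became 214 with muscle and rod covariates, 1032 with the adipocyte covariate, 671 with the block and 658 to 1018 without each WT mouse. The 370 midpoint calls became 52, 88 and, by DESeq2, 673, and 208 to 239 without FUN025/+ replicate 3 or 2. With every library thinned to the smallest total, the standard error of Thrsp between FUN025/FUN025 and WT went from 0.175 to 0.184.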
